A study of Mus musculus with 4 samples.

Results

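The genes described here encode the invariant parts of the T cell receptor and the surface coreceptors that sit beside it: Trac, Cd3d, Cd3e, Cd3g, Cd247, Cd4, Cd8a, Cd8b1, Cd5 and Cd6. The rule is a list of names that uses no measured value, and it picks 10 of the 50600 genes in each count file. The samples form 1 group of 4 RNA-seq libraries, labelled as biological replicates 1 to 4 of primary regulatory T cells from mouse strain C57BL/6NJ. No treatment or comparison group is given. The labels give age as unknown and sex as not collected, and they link a protocol for differentiating CD4+ T cells, and the names recorded within the count files add that the cells were activated, sorted and at 72 h. All 4 libraries point to the same donor record, but sex-linked genes, described below, split them 2 and 2, so they did not all come from 1 animal of 1 sex. Whether each library came from its own animal or culture is not said, and the p-values below measure the spread between these samples, of whatever source.

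The T cell receptor recognises peptide held by MHC molecules through a variable heterodimer of an alpha and a beta chain, which has no signalling tail of its own. Signals leave through the CD3 delta, epsilon and gamma chains and the zeta chain (CD247), whose tails carry the tyrosine motifs that the kinases Lck and Zap70 act on. CD4 and CD8 bind MHC class II and class I and bring Lck to the receptor, while CD5 and CD6 are scavenger receptor family proteins that tune the signal. Regulatory T cells are typically CD4+ cells with an alpha-beta receptor, and their development and suppressive function depend on signals from it.

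The promoters of the 3 CD3 genes and of Cd8a are printed because the CD3 genes lie in a single cluster and were all abundant, whereas Cd8a was close to silent. Each is the 250 bases before the RefSeq start in GRCm38.p6, read 5′ to 3′ on the gene's own strand, and for Cd3e that start lies inside the interval that the count files give. Those of Cd3d (chr9:44981536-44981785, plus strand), Cd3e (chr9:45009612-45009861, minus strand), Cd3g (chr9:44980432-44980681, minus strand) and Cd8a (chr6:71373177-71373426, plus strand) follow, with matches to the searched motifs in capitals.
Cd3d: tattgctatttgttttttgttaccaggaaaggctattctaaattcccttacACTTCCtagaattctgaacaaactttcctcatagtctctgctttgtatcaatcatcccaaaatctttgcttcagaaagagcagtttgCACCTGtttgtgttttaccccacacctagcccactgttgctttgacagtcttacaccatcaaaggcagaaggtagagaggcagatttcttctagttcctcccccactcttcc
Cd3e: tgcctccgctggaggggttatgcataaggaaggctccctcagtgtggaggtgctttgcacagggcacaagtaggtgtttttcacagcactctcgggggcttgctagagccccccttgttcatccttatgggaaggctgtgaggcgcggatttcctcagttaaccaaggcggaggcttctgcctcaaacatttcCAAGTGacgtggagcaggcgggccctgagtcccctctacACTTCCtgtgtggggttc
Cd3g: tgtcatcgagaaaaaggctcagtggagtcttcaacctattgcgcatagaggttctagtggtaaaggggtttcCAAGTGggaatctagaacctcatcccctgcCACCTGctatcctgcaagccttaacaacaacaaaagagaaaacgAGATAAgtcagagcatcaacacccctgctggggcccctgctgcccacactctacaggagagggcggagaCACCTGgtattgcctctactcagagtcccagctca
Cd8a: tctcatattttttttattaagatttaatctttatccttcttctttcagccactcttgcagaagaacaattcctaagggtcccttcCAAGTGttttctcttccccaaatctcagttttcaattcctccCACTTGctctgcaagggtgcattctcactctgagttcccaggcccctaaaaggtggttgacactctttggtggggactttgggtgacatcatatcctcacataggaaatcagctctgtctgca

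The motifs searched on both strands were the ETS core GGAAGT, the E-box CANNTG, the GATA core AGATAA, the RUNX core TGTGGT and the TATA box TATAAA. The RefSeq table held promoters for 6 of the 10 genes, those of Cd247 and Cd5 included. An ETS core as spelled stood in the promoters of Cd3d, Cd3e, Cd247 and Cd5 and in neither Cd3g nor Cd8a, and 19.7% of the 32851 promoters in the table held one. Shorter or variant forms of it were not searched. The ETS core of Cd3e began 18 bases before the start and that of Cd3d 199 bases before it. All 6 promoters held at least 1 E-box, as did 66.2% of all promoters, and Cd3g had 3. A GATA core was found only in Cd3g among the 6, 104 bases before the start, against 9.99% of all promoters. None of the 6 held the RUNX core or the TATA box as spelled, which occurred in 14.05% and 12.4% of promoters. The G and C content was 41.2% in Cd3d, 57.2% in Cd3e, 51.6% in Cd3g and 42.8% in Cd8a, beside a median of 52.4% over the table. These matches describe letters in a window and were not tested as binding sites.

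The libraries held 32648138 to 94983494 counts, with 13239 to 13351 genes at 1 TPM or more (the share of transcripts after each count is divided by exon length). No pair of libraries agreed within sampling noise, since the chi-square per gene was 11.8 to 52.5. Xist, the RNA of the silenced X chromosome, reached 312 TPM in replicate 1 and 331 TPM in replicate 2 but 0.539 TPM in replicate 3 and 2.38 TPM in replicate 4. Y-linked Eif2s3y was the reverse, with 0.0830, 0.132, 49.3 and 67.7 TPM in replicates 1 to 4, so these libraries go against the single donor record that covers them. Replicate 1 had the most Gm42418, a non-coding locus carrying ribosomal RNA sequence, at 11891 TPM against 1555 to 4335 TPM in the others. All 8 regulatory T cell markers reached 1 TPM throughout and summed to 4699 to 5170 TPM, with Foxp3 at 433 to 495 TPM. Markers of other cells summed to 1.05 to 2.43 TPM for NK cells, 3.43 to 3.99 TPM for gamma-delta T cells, 5.33 to 7.34 TPM for B cells, 4.05 to 5.55 TPM for dendritic cells, 7.83 to 11.1 TPM for monocytes and macrophages and 5.53 to 9.06 TPM for thymocytes. Among these, Ncr1, Klra8, Tyrobp, Clec9a, Siglech, Fcgr1, Rag2 and Ptcra had no count in any library. From the same lists, Klrd1, Trdc, Tcrg-C2, Cd79b, Zbtb46, Cd68, Adgre1 and Cd1d1 instead exceeded 1 TPM throughout. Their means were 1.62, 1.44, 1.77, 5.37, 4.26, 7.45, 1.75 and 5.88 TPM in that order.

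Of the 10 receptor and coreceptor genes, 9 were at 1 TPM or more in every library, beside 23.9% of all 50600 genes and 49.1% of the 21764 protein-coding genes. Cd8a was the exception. By exon-union length, explained below, 7 genes exceeded 100 TPM in every library. The share of all genes above that level was not counted, so this number has no background beside it. It also depends on length. Cd247 missed that level at 91.0 to 97.8 TPM, but stood at 205 to 221 TPM by principal transcript length, also explained below. Together the 10 genes took 0.249 ± 0.00700% of all counts (SD, n = 4), from 0.241% in replicate 2 to 0.255% in replicate 4. The median of their mean levels was 252 TPM. It was 30.9 TPM over the protein-coding genes at 1 TPM or more in every library. By exon-union length, the length that the deposited files give, the order was Trac, Cd5, Cd4, Cd6, Cd3d, Cd3e, Cd3g, Cd247, Cd8b1 and Cd8a.

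**Figure D1:**
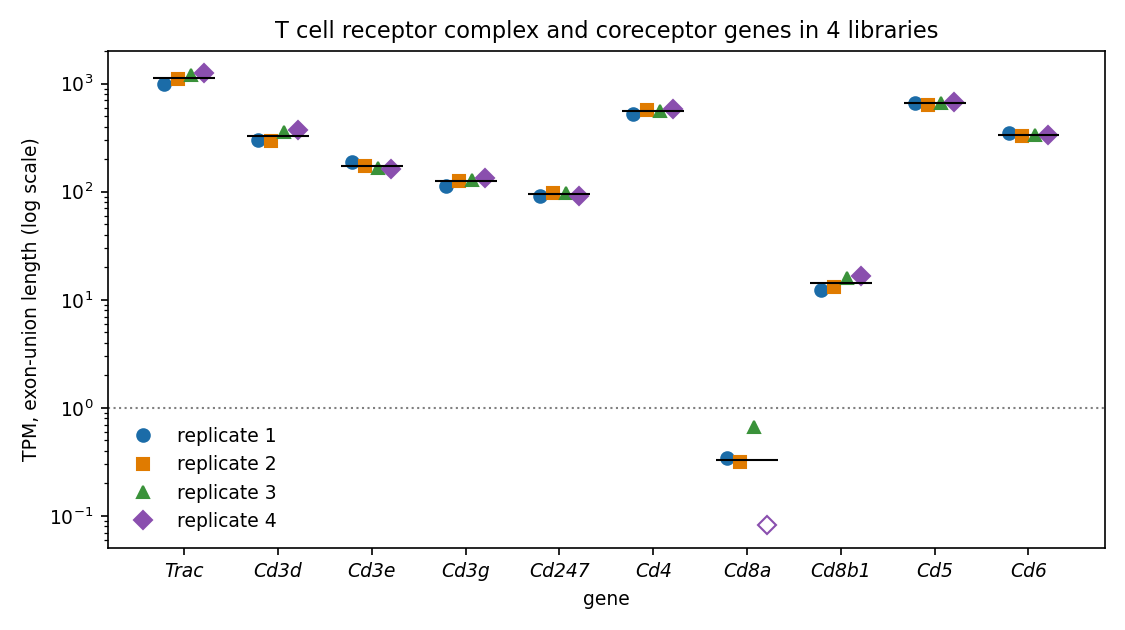
Levels of the 10 genes in TPM (vertical log axis, exon-union length) by gene (horizontal axis); each symbol is 1 library, the bar is the mean of 4 libraries, and the dotted line marks 1 TPM. The open diamond puts Cd8a of replicate 4, which had 0 counts, at its 3-count limit of 0.0821 TPM; the other 9 genes lie above 1 TPM in all 4 libraries.

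Trac, the constant region of the receptor alpha chain, was the most abundant of the 10 and ranked between 92 and 107 of all genes by TPM. The gene (ENSMUSG00000076928.5) lies on chromosome 14 at 54220521 to 54224206 (mm10, plus strand) and has 935 bp of exon. Its level was 986 TPM in replicate 1, 1112 TPM in replicate 2, 1208 TPM in replicate 3 and 1245 TPM in replicate 4, from 13340, 22729, 33327 and 11700 counts. The lowest value was that of replicate 1, and the highest was 1.26 times as large. The mean was 1138 ± 116 TPM (SD, n = 4).

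The beta chain constant regions Trbc1 and Trbc2 summed to 1246, 1231, 1216 and 1237 TPM in replicates 1 to 4, a mean of 1232 ± 12.7 TPM. The sum was 0.994 to 1.26 times the level of Trac. The split between Trbc1 (566 ± 35.8 TPM) and Trbc2 (666 ± 39.5 TPM) is uncertain, because these genes are near-identical and reads with several matches were not counted. Reads shared by both genes are lost from both, so the sum and its ratio to Trac may be too low. The constant regions of the gamma-delta receptor, Trdc, Tcrg-C1, Tcrg-C2 and Tcrg-C4, summed to 3.42 to 3.96 TPM. Trac was 264 to 344 times that sum. Reads with several matches were not counted for these genes either, so the sum may be too low and this ratio too high. Tcrg-C1 had 2 counts in replicate 3 and 0 counts in each of the others. The pre-T alpha gene Ptcra and the recombinase gene Rag2, both used by thymocytes to build receptors, had no count in any library, and Rag1 stood at 0.00692 to 0.164 TPM. Dntt, the enzyme that adds bases at receptor joints, averaged 1.37 ± 0.820 TPM.

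Cd3d, Cd3e and Cd3g encode the delta, epsilon and gamma chains of CD3, and they lie side by side on chromosome 9. Cd3d (ENSMUSG00000032094.8, 44981786 to 44987339, plus strand) measured 302, 295, 356 and 372 TPM in replicates 1 to 4, a mean of 331 ± 38.4 TPM (SD, n = 4). Replicates 3 and 4 were above replicates 1 and 2. Cd3e (ENSMUSG00000032093.7, 44998740 to 45009627, minus strand) measured 189, 173, 167 and 162 TPM, a mean of 173 ± 11.6 TPM, with its highest value in replicate 1. Cd3g (ENSMUSG00000002033.14, 44969572 to 44980431, minus strand) measured 114, 126, 129 and 135 TPM, a mean of 126 ± 8.97 TPM, with its lowest value in replicate 1. Cd247 (ENSMUSG00000005763.15), on chromosome 1 at 165788681 to 165877277 (plus strand), encodes the zeta chain and measured 92.2, 97.3, 97.8 and 91.0 TPM, a mean of 94.6 ± 3.47 TPM. Its 4 libraries differed by no more than 1.07-fold. The noncoding gene Gm16565 shares 206 of its exon bases (3.87%), and reads in that overlap were not counted. Together the 4 signalling chains summed to 725 ± 35.6 TPM.

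The order among these chains depended on which gene length was used. Exon-union lengths were 1815 bp for Cd3d, 4080 bp for Cd3e, 3269 bp for Cd3g and 5329 bp for Cd247, whereas the principal transcripts in GENCODE M21 were 1617, 1462, 1023 and 1632 bp long. By principal transcript length, Cd3e stood at 335 ± 24.2 TPM, Cd3g at 280 ± 18.4 TPM, Cd3d at 258 ± 28.6 TPM and Cd247 at 214 ± 7.92 TPM (SD, n = 4). On the log2(TPM + 1) scale, Cd3e minus Cd3d was -0.93 ± 0.25 by exon-union length, below 0 in 4 of 4 libraries, and 0.38 ± 0.25 by principal transcript length, above 0 in 4 of 4. Cd3g minus Cd3d was likewise -1.38 ± 0.11 by the first length and 0.12 ± 0.11 by the second. By both lengths Cd3e exceeded Cd3g, by 0.45 ± 0.20 and 0.26 ± 0.20, and Cd247 was below Cd3e, at -0.86 ± 0.11 and -0.64 ± 0.11. Trac exceeded Cd3e by 2.71 ± 0.24 with the first length and by 1.23 ± 0.24 with the second. The principal transcript length was tried after the data had been seen.

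**Figure D2:**
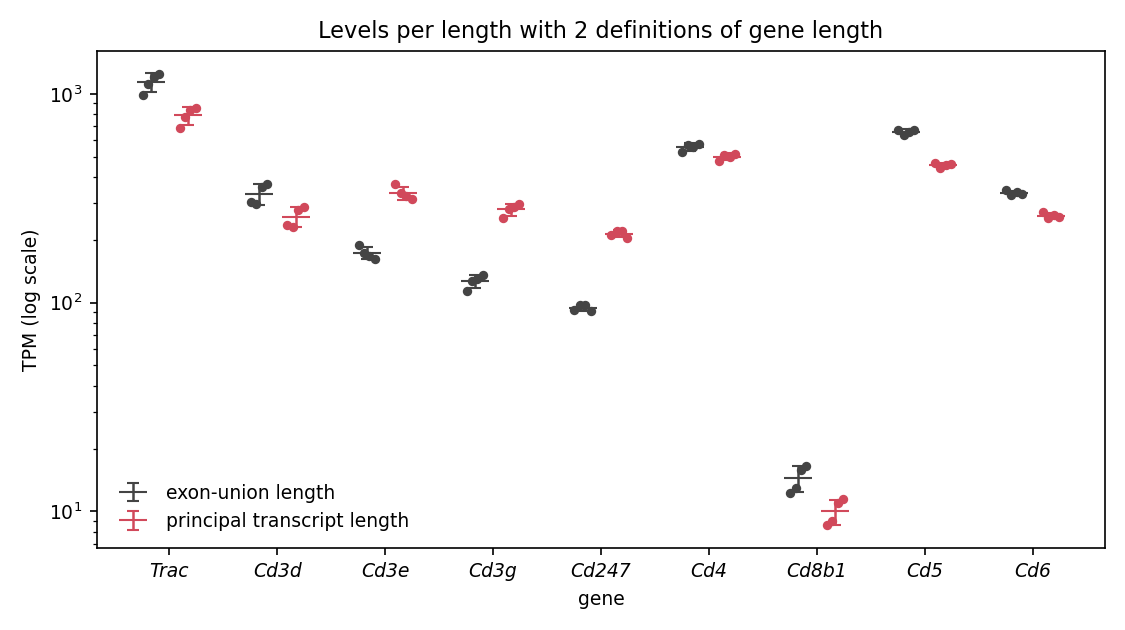
Levels of 9 genes in TPM (vertical log axis) by gene (horizontal axis), computed with the exon-union length (grey) and with the principal transcript length (red); points are the 4 libraries, bars the mean and SD, and Cd8a is left out because 1 library had 0 counts. Cd3e is below Cd3d in the grey points and above it in the red ones in each library, and Cd5 and Cd4 change places in the same way.

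Cd4 and the CD8 genes lie on chromosome 6. Cd4 (ENSMUSG00000023274.14, 124864692 to 124888221, minus strand) encodes the coreceptor for MHC class II and measured 527, 567, 556 and 577 TPM in replicates 1 to 4. The lowest and highest libraries differed by 1.10-fold, and the mean was 557 ± 21.8 TPM (SD, n = 4), with 23390 to 66152 counts behind each value. Cd8b1 (ENSMUSG00000053044.8, 71322788 to 71337494, plus strand), the CD8 beta chain, measured 12.3, 13.01, 15.8 and 16.6 TPM from 264, 422, 692 and 247 counts, a mean of 14.4 ± 2.09 TPM. Replicates 3 and 4 were above replicates 1 and 2, and the exact 95% Poisson intervals, which cover counting error only, were 10.9 to 13.9, 11.8 to 14.3, 14.7 to 17.03 and 14.6 to 18.8 TPM in replicates 1 to 4.

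Cd8a (ENSMUSG00000053977.13, 71373427 to 71379173, plus strand), the CD8 alpha chain, was nearly undetected. It had 18, 25, 72 and 0 counts in replicates 1 to 4, or 0.342, 0.314, 0.671 and 0 TPM. Replicate 4 was the shallowest library, and its count of 0 was given a limit of 3 counts, or 0.0821 TPM. The exact 95% Poisson interval of that 0 reached 0.101 TPM. That of replicate 3, 0.525 to 0.845 TPM, lay above both values. In bulk RNA, fewer cells of a type and less RNA per cell cannot be told apart, for Cd8a and Cd8b1 as for any gene here.

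The CD8 beta chain gene thus stood above the gene of the alpha chain with which it pairs in CD8 T cells. Cd8b1 was 36.0, 41.4 and 23.6 times Cd8a in replicates 1 to 3. In replicate 4, with Cd8a put at its limit of 3 counts, Cd8b1 was 202-fold higher. On the log2(TPM + 1) scale the difference was 3.55 ± 0.39 (SD, n = 4), above 0 in 4 of 4 libraries. Because Cd8a lay under 1 TPM, this value depends on the pseudocount, and it was 5.39 with a pseudocount of 0.1. Cd4 was 34.8 to 43.6 times Cd8b1, and 1541, 1803 and 829 times Cd8a in replicates 1 to 3. In replicate 4 Cd4 was 7033-fold higher than Cd8a at the same 3-count limit. Of the 8 CD8 and cytotoxic T cell markers, Cd8b1, Nkg7 and Eomes reached 1 TPM in each library. The list summed to 92.3 to 130 TPM, of which Nkg7 made up 77.3 to 112 TPM. Gzmk had no count in any library and Prf1, which encodes perforin, stood at 0.0393 to 0.501 TPM. The part of CD8 T cells in the Cd8b1 level was not tested.

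**Figure D3:**
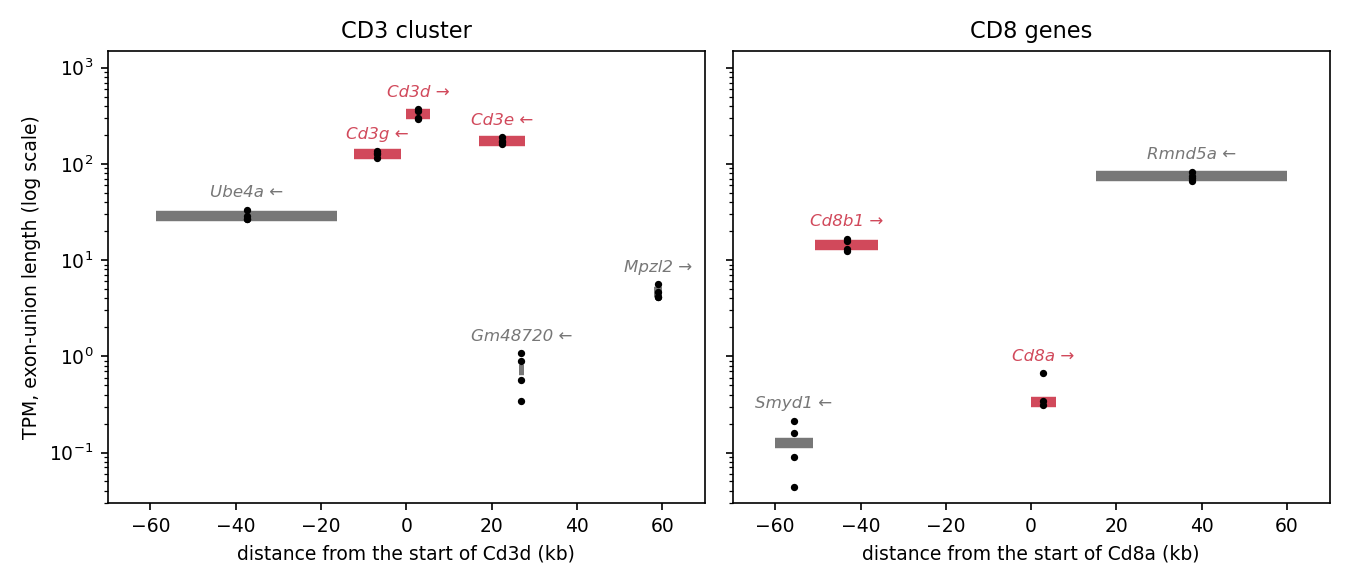
Genes around Cd3d (left) and around Cd8a (right), with distance from the start of the named gene in kb (horizontal axis) and level in TPM by exon-union length (vertical log axis); bars span each gene at its mean and stop 60 kb from that start, points are libraries with at least 1 count, arrows give the strand, and red marks the receptor and coreceptor genes. Genes with a mean under 0.1 TPM are not drawn, and Gm48720 lies within Cd3e; the 3 CD3 genes stand above their neighbours, and Cd8b1 stands above Cd8a.

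Both clusters held genes of unlike level by exon-union length. By principal transcript length the CD3 genes lay closer together and in another order, with Cd3d at 258, Cd3e at 335 and Cd3g at 280 TPM. The starts of Cd3d and Cd3g lie 1355 bp apart on opposite strands, and that of Cd3e lies 27.8 kb from that of Cd3d. The nearest genes outside the CD3 cluster were Ube4a, a ubiquitin ligase, at 28.9 ± 3.07 TPM and Mpzl2, an adhesion protein, at 4.63 ± 0.704 TPM (SD, n = 4). Cd8b1 and Cd8a are transcribed in the same direction with starts 50.6 kb apart. Between them, the annotated noncoding genes Gm44110, Gm44111 and Gm44174 had no count in any library and Gm44175 averaged 0.0243 TPM. Smyd1, a muscle methyltransferase gene 554 bp before Cd8b1, averaged 0.127 TPM, and Rmnd5a, 9.46 kb beyond Cd8a, stood at 74.2 ± 6.98 TPM.

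Around Cd4, Lag3, a related receptor that also binds MHC class II, lies 16.1 kb away and measured 52.1, 65.9, 75.4 and 77.7 TPM. Gpr162, 708 bp from the other end of Cd4, averaged 1.41 TPM. Beside Trac, Dad1 stood at 110 ± 8.57 TPM, and the joining segment pseudogene Traj1, only 29 bp long, had 0, 68, 36 and 14 counts in replicates 1 to 4. Beside Cd247, Creg1 stood at 20.1 ± 0.120 TPM.

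Cd5 and Cd6, which encode related scavenger receptor proteins, are neighbours on chromosome 19, with 50.4 kb between them that hold the noncoding gene A430093F15Rik, at 44.96 ± 4.14 TPM. Cd5 (ENSMUSG00000024669.7, 10718143 to 10738974, minus strand) measured 669, 636, 658 and 672 TPM in replicates 1 to 4. Its mean was 659 ± 16.4 TPM (SD, n = 4), and its coefficient of variation of 2.49% was the smallest of the 10 genes. Cd6 (ENSMUSG00000024670.16, 10789341 to 10830058, minus strand) measured 346, 326, 338 and 332 TPM, a mean of 336 ± 8.54 TPM. Replicate 2 was the lowest library for both. Cd5 was 1.93 to 2.03 times Cd6 in the 4 libraries, and the log2 difference of 0.97 ± 0.03 had the smallest spread of the 15 contrasts examined.

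Genes for reported binding partners of CD5 and CD6 were lower than the receptors themselves. Cd72, a partner proposed for CD5, averaged 30.9 ± 0.690 TPM, and Alcam, the classical ligand of CD6, 10.6 ± 1.82 TPM. Cdcp1, another CD6 ligand, averaged 1.86 ± 0.370 TPM. On either side of the pair lay Vps37c, an endosomal sorting gene, at 26.7 ± 1.57 TPM and Slc15a3, a lysosomal peptide transporter 9.67 kb beyond Cd6. Slc15a3 measured 111, 82.8, 84.5 and 71.1 TPM in replicates 1 to 4 and varied between libraries more than the trend (edgeR goodness of fit, adjusted p = 0.00775), while neither Cd5 nor Cd6 was called.

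In all, 15 differences between pairs of these genes were taken within each library on the log2(TPM + 1) scale. Of these pairs, 9 were fixed by name. The rest were neighbours in the order of mean TPM in these same libraries. That order set their direction, so their signs are not independent support for it. In 14 of the 15 all 4 libraries had the same sign, which gives an exact two-sided sign-flip permutation p of 0.13, the smallest that 4 libraries allow, and 0.134 after Benjamini-Hochberg adjustment over the 15. No such difference can pass 0.05 in this design. The exception was Cd6 minus Cd3d, at 0.03 ± 0.17 and above 0 in 2 of 4 libraries (exact permutation p = 0.875), so these neighbours in level per length did not differ beyond their spread, and the mean was below 0 without replicate 1 or without replicate 2. Trac exceeded Cd5 by 0.78 ± 0.15, Cd5 exceeded Cd4 by 0.24 ± 0.08, Cd4 exceeded Cd6 by 0.73 ± 0.09 and Cd247 exceeded Cd8b1 by 2.64 ± 0.21 (SD, n = 4). The Cd5 and Cd4 difference turned to -0.13 ± 0.08 by principal transcript length. With that length the neighbours Cd3g, Cd6 and Cd3d, at 254 to 298, 255 to 271 and 230 to 288 TPM, overlapped. Cd247 minus Cd8b1 was 4.30 by that length. With no length correction at all, Trac minus Cd5, Cd5 minus Cd4 and Cd3g minus Cd247 were below 0 and Cd3e minus Cd3d was above 0. Cd6 minus Cd3d was then 0.93 ± 0.17, above 0 in 4 of 4 libraries.

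The libraries were next compared for each gene. By edgeR's goodness-of-fit test, which asks whether a gene varies between libraries more than genes of its abundance, 9 of the 10 genes could be tested and 0 were called, beside 0.378% of all 13494 genes tested. Cd8a did not pass the filter on low counts because replicate 4 had none. Cd3d had the smallest value, at an unadjusted p of 0.0245 and an adjusted p of 0.700 (edgeR), and 1 of the 9 was under 0.05 before adjustment, beside 5.97% of all genes tested. The other 8 had unadjusted p-values between 0.198 for Trac and 0.965 for Cd4 and adjusted values of 1.00 (edgeR). A limma test of the residual variance also called 0 of the 9. Without the filter Cd8a had an unadjusted p of 0.0236 and an adjusted p of 1.00 (edgeR).

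**Figure D4:**
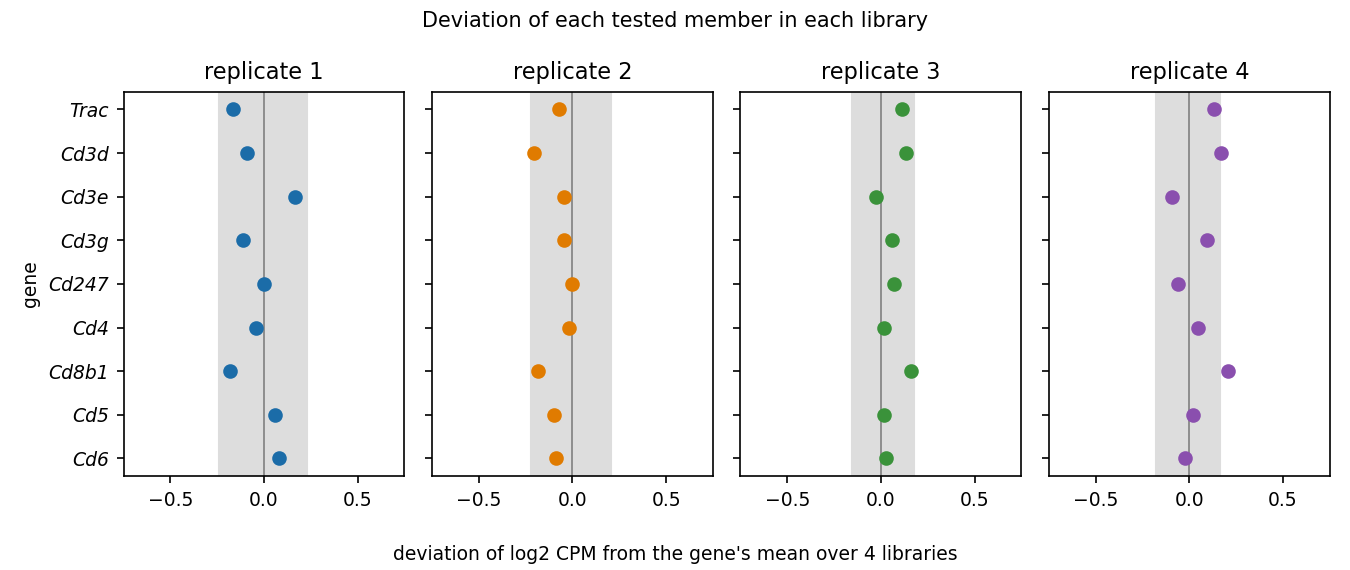
Deviation of log2 CPM (counts scaled to the library total) from the gene's mean over 4 libraries (horizontal axis) for the 9 tested genes (vertical axis), with 1 panel for each library. The grey band holds the middle 90% of 9894 genes at a mean of 5 CPM or more, pooled whatever their abundance. Cd3d and Cd8b1 lie past the upper edge of the band in replicate 4, at 0.17 and 0.20. Cd8b1 has a mean of 6.61 CPM, near the cut.

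On the log2 CPM scale Cd4 was the steadiest of the 9, with a range of 0.09 over the libraries, and Cd8b1 and Cd3d were the widest, with ranges of 0.39 and 0.37. The median range over 9894 genes at a mean of 5 CPM or more was 0.24. Those genes were pooled whatever their abundance, and Cd8b1, at a mean of 6.61 CPM, was near the cut. Beside genes of its own abundance Cd8b1 was not called (edgeR goodness of fit, unadjusted p = 0.547). Trac, Cd3d, Cd3g, Cd4 and Cd8b1 lay below their own means in replicates 1 and 2 and above them in replicates 3 and 4. Cd3e, Cd247, Cd5 and Cd6 did not show this pattern. The share of all genes with the pattern was not counted, so it cannot be called particular to these genes. The goodness-of-fit test called none of the 9. Cd3d deviated by -0.09, -0.21, 0.13 and 0.17 in replicates 1 to 4, and Trac by -0.17, -0.07, 0.11 and 0.13. Cd3e ran differently, with 0.16 in replicate 1 and -0.04, -0.03 and -0.09 in replicates 2 to 4. On this scale Cd5 and Cd6 were both highest in replicate 1 and lowest in replicate 2. Replicates 1 and 2 were also the libraries with high Xist and low Eif2s3y, and replicate 1 the one with most Gm42418, and the part of these differences in the receptor genes was not tested.

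Cd8b1, the widest of the expressed genes, was compared with every other gene by the root mean square distance between deviations over the 4 libraries. The nearest of 9893 genes were the keratin gene Krt83 at 0.02 (log2), Retsat, which encodes a retinol saturase, at 0.02 and Pigw, an enzyme of GPI anchor synthesis, at 0.03, where the median distance was 0.21. These distances rest on 4 libraries and describe likeness only.

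The other genes of the receptor pathway were mostly expressed too. Outside the 10 genes, 72 were listed, of which 65 were at 1 TPM or more in every library. Their median, over all 72, was 66.3 TPM, beside 252 TPM for the receptor and coreceptor genes. The edgeR goodness-of-fit test covered 66 of them and called 0. Unadjusted p-values under 0.05 were found for 4 of the 66, Themis, Fyb, Cd28 and Lag3, a share of 6.06% that is close to the 5.97% over all genes tested.

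**Figure D5:**
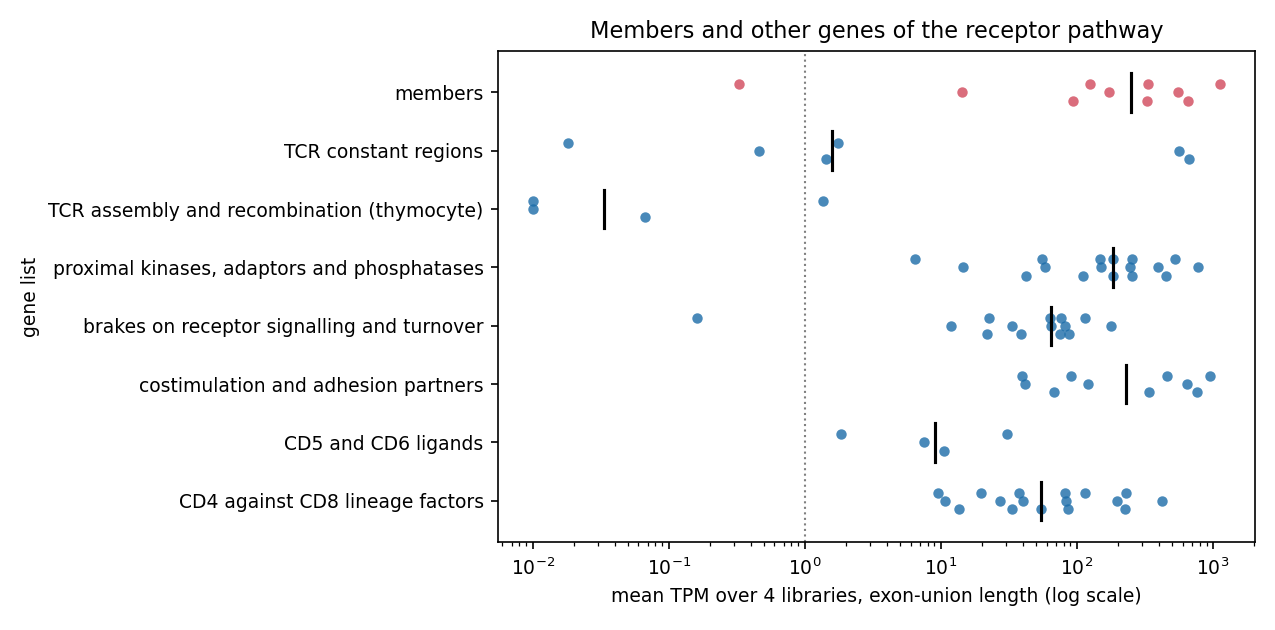
Mean level over 4 libraries in TPM by exon-union length (horizontal log axis) of the receptor and coreceptor genes (red) and of other genes of the pathway (blue), by list (vertical axis); each point is a gene, vertical bars are list medians, the dotted line marks 1 TPM, and genes at 0 are drawn at the left edge. The proximal signalling and costimulation lists have medians of 185 and 230 TPM, and the thymocyte list lies mostly below 1 TPM.

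All 17 proximal kinases, adaptors and phosphatases were at 1 TPM or more in every library, with a median of 185 TPM. Lck, the kinase carried by CD4, was at 762 to 798 TPM, and Lat, the membrane adaptor that Zap70 phosphorylates, at 516 to 558 TPM. Zap70 itself, which docks on CD3 and zeta tails, stood at 255 ± 8.36 TPM (SD, n = 4), and Txk, a Tec family kinase, was the lowest at 5.22 to 7.83 TPM. Of the 14 genes listed as restraining receptor signalling or driving its turnover, 13 were expressed. Their roles were not tested here, and the median over the 14 was 64.5 TPM. Sh2d2a at 180 ± 9.36 TPM and Ubash3a at 116 ± 2.86 TPM led them, and Rnf128, the ubiquitin ligase GRAIL, stayed at 0.0598 to 0.251 TPM.

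All 10 costimulation and adhesion genes reached 1 TPM in each library, and their median was 230 TPM. Cd2, which binds CD48 in mice, averaged 949 ± 39.1 TPM, and the integrin beta chain gene Itgb2 772 ± 55.2 TPM, whereas Cd27 averaged 39.5 ± 2.88 TPM (SD, n = 4). The 17 transcription factors that act on CD4 or CD8 lineage choice all reached 1 TPM in each library. Their median was 54.9 TPM, and the highest were Tcf7 at 420 ± 12.0 TPM and Tcf3 at 232 ± 16.2 TPM, and the lowest was Tox at 9.63 ± 0.575 TPM. Zbtb7b, which encodes the CD4 lineage factor ThPOK and is known to restrain CD8 genes in CD4 T cells, stood at 78.1, 82.2, 82.1 and 87.6 TPM in replicates 1 to 4. Runx3, known as a CD8 lineage factor, stood at 80.0, 84.7, 89.2 and 89.3 TPM. By exon-union length Runx3 was above Zbtb7b in each of the 4 libraries, but its counts were lower in each. They were 5795, 9263, 13170 and 4491 for Runx3 and 6318, 10056, 13542 and 4923 for Zbtb7b. The order of this pair therefore depended on gene length, and the difference was not tested.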

How the data were processed

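The authors deposited raw, unnormalized counts of read pairs, which featureCounts 1.4.6-p4 had summed over the exons of each GENCODE M13 gene, per the file headers. Pairs needed both mates mapped and were counted with the reverse strand option (2), per the file headers, and the labels name mm10. Reads with several matches or in overlapping genes were not counted, per the file headers. Read trimming and alignment were not given in the sources used here, and the labels call the RNA total, while the library protocol they link carries poly(A)+ in its name. Symbols came from GENCODE M21, which matched 50376 of 50600 identifiers, and promoters from RefSeq (GRCm38.p6).

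TPM was computed here from counts and the exon lengths in the files, and CPM from library totals (46044354, 72147632, 94983494 and 32648138 counts in replicates 1 to 4). A count of 3 was taken as the limit that a 0 allows. The test of variation used edgeR 4.0.16 under R 4.3.3, with TMM, filterByExpr (minimum count 10), an intercept-only design, trended dispersion and goodness of fit, with Benjamini-Hochberg adjustment over 13494 genes and calls under 0.05; the code was tested on simulated data. Contrasts used the exact sign-flip permutation test on log2(TPM + 1). Alternatives were DESeq2 1.42.0 size factors, limma 3.58.1, other filters, thresholds, pseudocounts and lengths, and leaving out each library. The members and lists were chosen with earlier results of these data known. Named genes were the members, the 2 highest and the lowest of each pathway list, called genes, chromosomal neighbours and the 3 genes most like the widest member; Zap70, Zbtb7b, Runx3 and the genes with a small unadjusted p were named after their values were seen, as were some markers.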

Additional observations from a re-analysis of the deposited data

Results flagged for a closer look

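Of 45 values examined, 4 had a single library set apart from the rest by Dixon's test, and chance alone picks out about 1 in 20. Cd8b1 minus Cd8a was 4.14 (log2) in replicate 4 against 3.31 to 3.41 in the others, and replicate 4 had no Cd8a count. Cd5 minus Cd6 was 1.02 in replicate 4 against 0.948 to 0.959 in the others, a gap that is small beside the difference itself. Tcrg-C1 stood at 0.0733 TPM in replicate 3, from 2 counts, and had no count in the others. Itgb2 was lowest in replicate 1, at 690 TPM against 789 to 807 TPM.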

How the results depend on the processing

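Of 105 contrasts recomputed under an alternative, 96 kept their direction and 9 turned. In CPM, without length correction, Cd3e minus Cd3d was 0.23, Trac minus Cd5 was -0.36, Cd5 minus Cd4 was -0.72 and Cd3g minus Cd247 was -0.29; Cd6 minus Cd3d was 0.93. With a pseudocount of 0.1, Cd8b1 minus Cd8a was 5.39 and Cd4 minus Cd8a 10.7. By principal transcript length, chosen after seeing the data, Cd3e minus Cd3d was 0.38, Cd3g minus Cd3d 0.12 and Cd5 minus Cd4 -0.13. Leaving out each replicate in turn, Cd6 minus Cd3d ran from -0.0311 to 0.0896, below 0 without replicate 1 or replicate 2. The count of 51 genes varying between libraries was 937 with a common dispersion and 15 by limma, and 17 to 56 leaving out each replicate in turn, with 17 without replicate 1 and 23 without replicate 3; the cause was not tested. It was 51 with DESeq2 size factors, 38 without a filter and 67 with genes at a mean of 1 CPM or more. No receptor or coreceptor gene crossed the threshold in any of 81 values, from 9 tested genes in 9 alternative fits. The lowest adjusted p among them was 0.714 for Cd3d with DESeq2 size factors in edgeR. The number at 1 TPM or more was 9 under all 8 alternatives, and of 69 recomputed mean levels 17 moved by more than the spread between libraries, all of them by a change of length or of the genes included. No paired comparison of conditions was possible because there is only 1 group, and only pairs of genes were compared within each library. In replicate 4 a Cd8a level of up to 0.0821 TPM, that of 3 counts, would not be told from 0, and length definitions limit the order of the CD3 chains.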
